A study of Danio rerio with 4 samples.

Results

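Keratin and desmosome genes of the skin were followed in whole zebrafish embryos that lacked mdm2 or kept it, in a common background without puma, noxa and p21. The 43 members were all genes of the deposited table whose symbol names a keratin (22 genes, cyt1 and cyt1l included), a plakin (desmoplakin, envoplakin, periplakin or plectin, 6 genes), a desmosomal cadherin (2), plakoglobin or a plakophilin (8), epcam (1) or a Grainyhead-like factor (4), out of 32057 genes in all. Of these, 37 reached 1 TPM in at least 2 libraries and were tested, and 6 did not. TPM is the read count of a transcript divided by its length, with every library brought to one total.

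Keratins are intermediate filament proteins that form obligate pairs of an acidic type I and a basic type II chain, and they give epithelial cells their mechanical strength. Filaments are tied to the cell surface at desmosomes, where desmosomal cadherins bridge neighbouring cells, plakoglobin and the plakophilins bind the cadherin tails, and desmoplakin links this plaque to keratin. At the base of the epidermis plectin performs a like task at hemidesmosomes, which hold cells to the basement membrane. The early zebrafish embryo has an outer layer, the periderm, over a basal layer of epidermal progenitors, and both are rich in keratin. Grainyhead-like factors are conserved regulators of epidermal barrier genes.

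The series had 4 poly-A RNA libraries from 2 genotypes with 2 libraries each. The quadruple mutants were mdm2-/-, puma-/-, noxa-/- and p21-/-. Their siblings from the same batch were puma-/-, noxa-/- and p21-/- with the genotype mdm2+/- or mdm2+/+, not separated further, and served as controls. The Mdm2 protein marks p53 for degradation. Downstream of p53, puma and noxa promote apoptosis and p21 blocks the cell cycle, so that the comparison concerns loss of mdm2 in embryos without these effectors. Titles call the mutants abnormal and the controls normal, and this description and the genotype cannot be told apart. Titles and the column headers of the deposited values give an age of 18 hours post-fertilization, whereas the tissue label gives 30 hours. Which age holds is unknown.

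The libraries had 15242 to 15584 genes at 1 TPM or more, and their depth is unknown because TPM keeps none. mdm2 transcript stood at 1634 and 1819 TPM in the mutants and at 81.9 and 85.1 TPM in the controls, and a gene-level value that counts transcripts of any allele does not check the genotype. Separate clutches are not stated for the libraries. The p-values therefore reflect spread among these 4 samples alone, and that spread may be technical. In whole embryos, fewer cells of a type and less RNA per cell cannot be told apart. Near-identical keratin copies may share reads, and the sources used here do not say how such reads were divided, so values of single keratin copies carry that uncertainty.

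Among the 37 members tested, 16 were higher in the quadruple mutants, 8 were lower and 13 did not pass (limma on log2(TPM + 1), adjusted p under 0.05). Of all 16172 genes tested, 28.0% were higher and 37.7% lower, 65.6% in either direction. Members thus passed about as often as other genes did, which is no result about them. The median log2 change of the members was 0.20 and that of all genes was -0.10. Groups did not overlap for 32 of the 37 members, against 83.3% of all genes tested. Median ratio scaling moved the median of all genes from -0.10 to 0.016, and under it 25 members were higher and 7 lower. Under the same scaling 5450 of all 16172 genes tested were higher and 5173 lower. With 2 libraries against 2, an exact permutation test cannot go below p = 0.333, and each call depends on the variance limma borrows across genes.

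**Figure D1:**
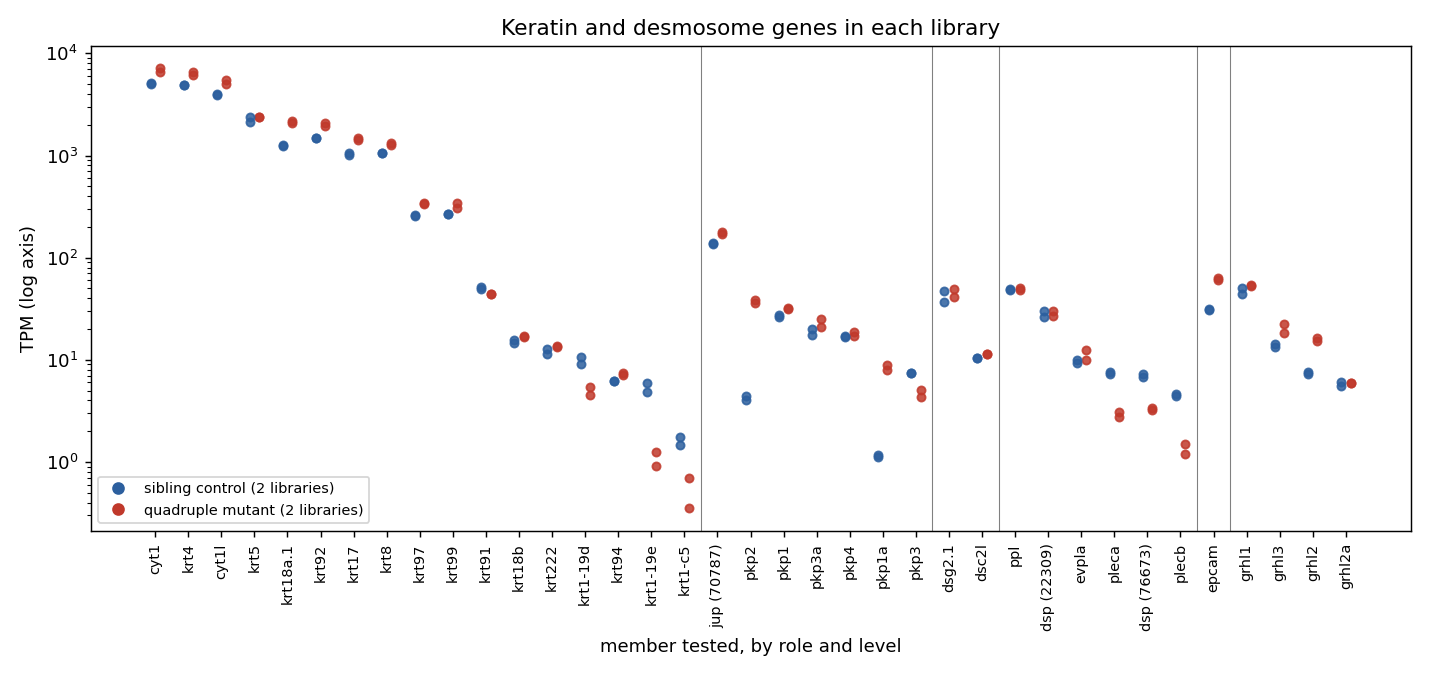
TPM of the 37 members tested, on a log axis, in the 2 control libraries (blue) and the 2 quadruple mutant libraries (red), grouped by role and ordered by level. The 8 most abundant keratins lie above 1000 TPM in every library, and the widest gaps between genotypes are at pkp2, pkp1a, krt1-19e, plecb and krt1-c5.

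Keratin transcripts were among the most abundant of the embryo, and the abundant ones were moderately higher in the quadruple mutants. Of 17 keratins tested, 9 rose, 4 fell and 4 did not pass, with a median log2 change of 0.26. Among all genes tested, 28.0% were higher and 37.7% lower. By level, of 10 keratins with a group mean of at least 100 TPM, 9 rose and 0 fell, whereas of 7 tested keratins below that level 0 rose, 4 fell and 3 did not pass. This boundary was chosen after the values were seen, and 1 of the 4, krt1-c5, could enter the test only as lower. Under median ratio scaling the low group had 3 higher and 3 lower, and all 17 keratins had 13 higher and 3 lower. Of all 16172 genes tested, 5450 were higher and 5173 lower under that scaling. With the boundary at 1000 TPM, the 9 keratins below it had 2 higher and 4 lower.

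cyt1, a keratin of the outer embryonic layer, was the most abundant, at rank 28 of all genes in the controls and rank 15 in the mutants by mean TPM. It stood at 7198 and 6514 TPM in the mutants and at 5132 and 5069 TPM in the controls (log2 change 0.42, SE 0.057, limma adjusted p = 0.0012). Both mutant libraries lay above both controls, and mutant library 1 was the higher of the pair. krt4, a type II keratin of the outer layer, stood at 6531 and 6084 TPM against 4937 and 4892 TPM (0.36, SE 0.049, limma adjusted p = 0.0012). cyt1l stood at 5486 and 5038 TPM against 4032 and 3892 TPM (0.41, SE 0.055, limma adjusted p = 0.0011). These 3 genes had the same rank order in every library. The ratio of cyt1l to cyt1 was 0.762 and 0.774 in the mutants and 0.786 and 0.768 in the controls, which overlap.

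krt92 stood at 2080.3 and 1925 TPM in the mutants and at 1496 and 1470.2 TPM in the controls (log2 change 0.43, SE 0.052). krt17, a type I keratin, stood at 1478 and 1426 TPM against 1057 and 1011 TPM (0.49, SE 0.048). Of the less abundant risers, krt97 stood at 344 and 338 TPM against 263 and 258 TPM (0.39, SE 0.047). krt99 stood at 307 and 343 TPM against 270.4 and 271 TPM (0.26, SE 0.065, limma adjusted p = 0.014). The groups did not overlap for any of the 4 genes, as for 83.3% of all genes tested. krt99 did not pass without the variance trend (limma adjusted p = 0.059). Nor did krt99 pass with either control left out, where its log2 change was 0.26 in both cases. Its limma adjusted p ran from 0.0015 to 0.081 over 12 alternatives, with the minimum fold set aside.

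The largest rise among keratins was that of krt18a.1, a type I keratin of simple epithelia and the usual partner of krt8. It stood at 2162 and 2070.4 TPM in the mutants and at 1256 and 1241 TPM in the controls, 1.69 times as much (log2 change 0.76, SE 0.045, limma adjusted p = 5.4e-05). krt8, a type II keratin, stood at 1278 and 1318 TPM against 1065 and 1058 TPM (0.29, SE 0.043, limma adjusted p = 0.0017). Both genes rose, and krt18a.1 rose more. The ratio of krt8 to krt18a.1 within a library was 0.591 and 0.637 in the mutants and 0.848 and 0.853 in the controls, without overlap (exact permutation p = 0.333, 2-sided, the smallest that 2 against 2 libraries allow). krt18a.1 made up 7.37% and 7.52% of all keratin TPM in the mutants and 5.78% and 5.74% in the controls.

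krt5, a type II keratin, was the abundant keratin that did not pass. Its values were 2398 and 2379 TPM in the mutants and 2118 and 2357 TPM in the controls (log2 change 0.10, SE 0.060, limma adjusted p = 0.21). Mutant and control libraries were separated by a margin smaller than the gap between the controls. It passed under median ratio scaling, with a log2 change of 0.24, and its limma adjusted p ran from 0.027 to 0.85 over the 12 alternatives. As a share of keratin TPM, krt5 was at 8.17% and 8.64% in the mutants and at 9.75% and 10.9% in the controls.

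Summed over the 22 keratins, TPM was 29353 and 27526 in the mutants and 21733 and 21618 in the controls, a ratio of means of 1.31 (exact permutation p = 0.333, 2-sided, the smallest possible). This sum was 2.94% and 2.75% of all TPM in the mutants and 2.17% and 2.16% in the controls. The 8 keratins above 1000 TPM held 97.1% to 97.5% of it in every library. Over the 4 libraries cyt1 held 23.4% to 24.5% of it and krt4 held 22.1% to 22.7%.

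**Figure D2:**
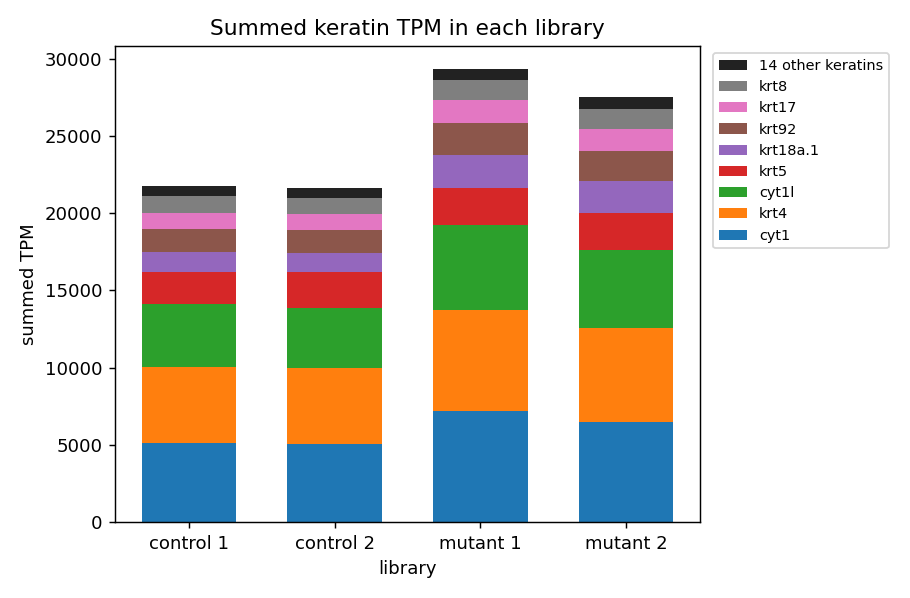
Summed TPM of the 22 keratins in each library, as stacked bars from 0, with the 8 keratins above 1000 TPM shown by colour and the other 14 in black. Both mutant bars (29353 and 27526 TPM) are taller than both control bars (21733 and 21618 TPM), and cyt1, krt4 and cyt1l make up most of each.

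Among the low keratins, krt1-19e, krt1-19d, krt1-c5 and krt91 fell. krt1-19e, also listed as krtt1c19e, whose promoter is used to label basal epidermal cells in zebrafish, stood at 0.92 and 1.25 TPM in the mutants and at 5.89 and 4.83 TPM in the controls. This is the largest fall among members tested, with -1.61 on the log2 scale (SE 0.150, limma adjusted p = 2.7e-04), and control TPM was 4.94 times that of the mutants. krt1-19d stood at 5.45 and 4.48 TPM against 10.6 and 9.04 TPM (-0.86, SE 0.133, limma adjusted p = 0.0020). krt1-c5 stood at 0.35 and 0.70 TPM against 1.74 and 1.45 TPM (-0.77, SE 0.165). It passed the filter on low values only through the controls, so that it could enter only by being lower in the mutants, and with either control left out it was not tested. The groups did not overlap for these 3 genes, as for 83.3% of all genes tested.

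krt91 stood at 44.0 and 44.3 TPM in the mutants and at 52.1 and 49.3 TPM in the controls (log2 change -0.19, SE 0.065, limma adjusted p = 0.038). The median gene was at -0.10, and krt91 did not pass without the variance trend (limma adjusted p = 0.092). It passed in 6 of 12 alternatives. Its limma adjusted p over them ran from 0.031 to 0.45, the highest under median ratio scaling, and it did not pass without mutant replicate 1 (-0.19), control replicate 1 (-0.16) or control replicate 2 (-0.23). The other keratins tested, krt18b (0.16), krt222 (0.16) and krt94 (0.20), did not pass, though both mutant libraries lay above both controls for each. Groups did not overlap for 83.3% of all genes tested. All 3 passed under median ratio scaling.

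In the gene order of RefSeq for assembly GRCz12tu, krt1-19d, krt1-19e, krt92, cyt1l, cyt1, krt17 and krt91 follow one another with no other protein-coding gene between them. This run of 7 neighbours held 4 keratins that rose, in the middle, and 3 that fell, at its ends. Of all genes tested, 65.6% passed in either direction. krt91, in the last place, was at -0.19 beside a median gene of -0.10. Under median ratio scaling krt91 was at -0.056 and did not pass. Whether position plays a part was not tested. krt5, krt8, krt18a.1 and krt18a.2 formed a second run of 4, in which krt8 and krt18a.1 rose, krt5 did not pass and krt18a.2 was not tested. krt93, krt94, krt98, krt15 and krt99 formed another run of 5, of which krt94 and krt99 were tested and krt99 rose.

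The members left untested were low in all libraries. krt95 stood at 0.68 and 1.41 TPM in the mutants and 0.69 and 0.39 TPM in the controls, and krt93 at 1.46 and 0.60 TPM against 0.39 and 0.53 TPM, so that each reached 1 TPM in 1 library and lay just outside the threshold. krt1-c5 lay just inside it. krt15, krt18a.2, krt98 and the second plakoglobin gene, jup (ENSDARG00000059067), were below 1 TPM in every library.

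In the desmosomal plaque, plakophilins spanned the widest range of log2 changes of any role among the members, from -0.58 to 2.87. pkp2, the plakophilin of simple epithelia and heart in mammals, stood at 38.2 and 36.2 TPM in the mutants and at 4.39 and 4.04 TPM in the controls. The mutant mean was 8.83 times the control mean, the largest rise among members (log2 change 2.87, SE 0.090, limma adjusted p = 7.2e-06). pkp1a, a copy of the plakophilin gene of stratified epidermis in mammals, stood at 8.92 and 8.02 TPM against 1.12 and 1.17 TPM, a ratio of 7.40 (2.14, SE 0.118, limma adjusted p = 4.4e-05). Among all genes tested, 9.54% passed with a rise of at least 2-fold on the log2(TPM + 1) scale, and pkp2 and pkp1a were the members that did so.

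The other plakophilins moved little or fell. pkp1 stood at 31.6 and 32.0 TPM in the mutants and at 26.5 and 27.3 TPM in the controls (log2 change 0.23, SE 0.068, limma adjusted p = 0.024). Without the variance trend pkp1 did not pass (limma adjusted p = 0.0503). It did not pass without control replicate 1 (0.21) or control replicate 2 (0.25), and its limma adjusted p ran from 0.0038 to 0.17 over the 12 alternatives. pkp3 stood at 4.3 and 5.03 TPM against 7.42 and 7.5 TPM and fell (-0.58, SE 0.114, limma adjusted p = 0.0053). pkp3a, its abundant copy, did not pass at 24.9 and 21.1 TPM against 20.1 and 17.6 TPM (0.27, SE 0.112), though it passed in 3 of the 12 alternatives, at 0.41 under median ratio scaling, 0.27 with the replicate block and 0.39 without mutant replicate 2. Nor did pkp4 pass at 18.5 and 17.3 TPM against 16.7 and 17.3 TPM (0.07, SE 0.082), where the groups overlap.

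By TPM, pkp2 ranked above pkp1a alone among the 6 plakophilins in the controls and above all the others in the mutants. The ratio of pkp2 to pkp1 was 0.166 and 0.148 in the controls and 1.21 and 1.13 in the mutants. Plakophilin TPM summed over the 6 genes was 126 and 119.5 in the mutants and 76.2 and 74.8 in the controls. Plakoglobin, encoded by jup (ENSDARG00000070787), which sits in both desmosomes and adherens junctions, stood at 176 and 171 TPM against 135 and 138 TPM (0.34 on the log2 scale, SE 0.052, limma adjusted p = 0.0018). Of the 7 tested genes for plakoglobin and plakophilins, 4 rose, 1 fell and 2 did not pass. Among all genes tested, 28.0% were higher and 37.7% lower.

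**Figure D3:**
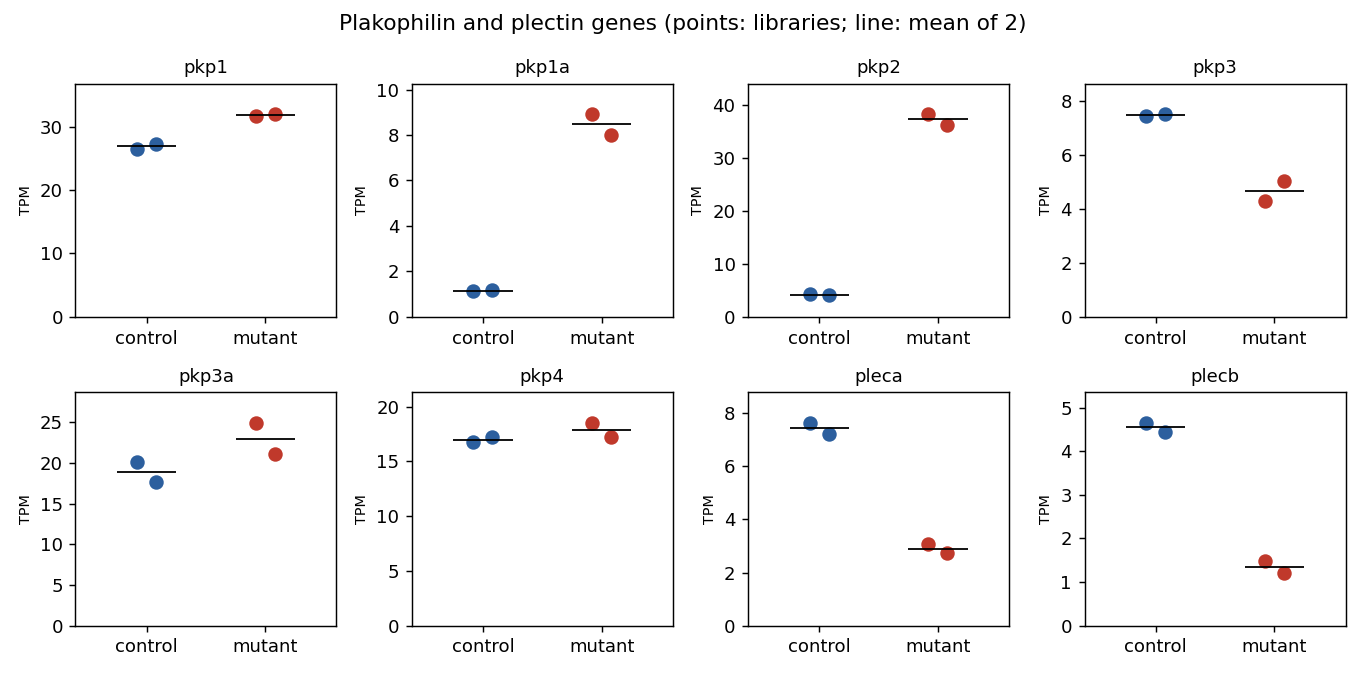
TPM of the 6 plakophilin genes and of pleca and plecb in each library, on linear axes from 0 with a separate scale per gene. Points are libraries and lines are means of 2. pkp2 and pkp1a are several times higher in both mutants, pkp1 is slightly higher, and pkp3, pleca and plecb are lower.

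The desmosomal cadherins did not pass. dsg2.1, a desmoglein gene, stood at 48.9 and 41.5 TPM in the mutants and at 36.8 and 46.9 TPM in the controls, with overlap (log2 change 0.11, SE 0.134, limma adjusted p = 0.48). Its spread between libraries of one genotype was wide beside that of the other abundant members. dsc2l, a desmocollin gene, stood at 11.3 and 11.4 TPM against 10.4 and 10.4 TPM (0.12, SE 0.087, limma adjusted p = 0.26). It passed under median ratio scaling, at 0.25.

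Of 6 plakins, 0 rose, 3 fell and 3 did not pass, and under median ratio scaling 2 were higher and 3 lower. Among all genes tested, 28.0% were higher and 37.7% lower. Median ratio scaling gave 5450 of all 16172 genes higher and 5173 lower. Both plectin genes fell. pleca stood at 3.07 and 2.74 TPM in the mutants and at 7.64 and 7.22 TPM in the controls (log2 change -1.11, SE 0.113, limma adjusted p = 3.8e-04). plecb stood at 1.49 and 1.2 TPM against 4.65 and 4.44 TPM (-1.24, SE 0.127, limma adjusted p = 3.9e-04). Summed plectin TPM in the mutants was 0.355 times that of the controls. With krt1-19e, these were the members that fell by at least 2-fold on the log2(TPM + 1) scale, which 11.5% of all genes did.

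The copies of desmoplakin, the linker between plaque and keratin, differed. The abundant dsp (ENSDARG00000022309) stood at 26.9 and 29.8 TPM in the mutants and at 26.4 and 29.8 TPM in the controls, with overlap (log2 change 0.01, SE 0.094, limma adjusted p = 0.91). The lower dsp (ENSDARG00000076673) stood at 3.41 and 3.25 TPM against 7.18 and 6.77 TPM and fell (-0.88, SE 0.108, limma adjusted p = 7.8e-04). The plakins of the cornified envelope in mammals did not pass. ppl (periplakin) stood at 48.6 and 50.9 TPM against 48.3 and 49.1 TPM (0.03, SE 0.063), and evpla (envoplakin) at 10.03 and 12.5 TPM against 10 and 9.22 TPM (0.20, SE 0.127). Both passed under median ratio scaling, at 0.17 and 0.33. evpla also passed without mutant replicate 1, at 0.35.

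epcam, an adhesion protein of epithelial surfaces, stood at 60.9 and 63.1 TPM in the mutants and at 30.6 and 31.3 TPM in the controls (log2 change 0.98, SE 0.064, limma adjusted p = 7.7e-05). The mutant mean was 2.00 times the control mean, and libraries of a genotype differed by little. Of the Grainyhead-like genes, 2 of 4 rose, as did 28.0% of all genes tested. grhl2 stood at 15.2 and 16.3 TPM against 7.64 and 7.22 TPM (0.99, SE 0.093, limma adjusted p = 2.7e-04). grhl3 stood at 22.4 and 18.1 TPM against 14.2 and 13.4 TPM (0.52, SE 0.117, limma adjusted p = 0.0092). Without control replicate 2 the log2 change of grhl3 was 0.48 and it did not pass, with a limma adjusted p between 0.0024 and 0.055 over the 12 alternatives. grhl1, the most abundant, did not pass at 53.2 and 54.3 TPM against 50.3 and 43.9 TPM (0.19, SE 0.083), but did under median ratio scaling (0.33). grhl2a did not pass at 5.93 and 5.96 TPM against 6.08 and 5.51 TPM (0.03).

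**Figure D4:**
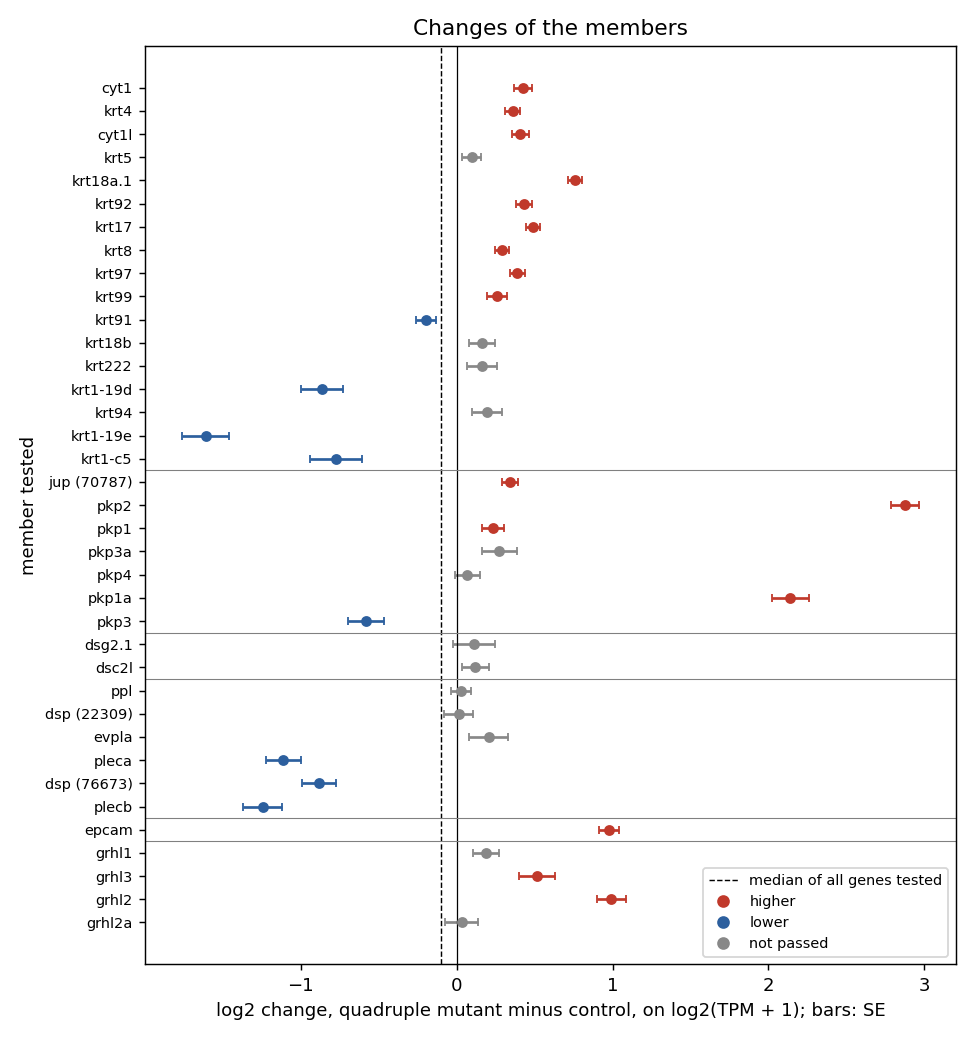
Change on the log2(TPM + 1) scale (quadruple mutant minus control) with its SE for the 37 members tested, by role. Red marks the 16 members that were higher, blue the 8 that were lower and grey the 13 that did not pass, and the dashed line is the median of all genes tested (-0.10).

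Other skin genes, from lists outside the membership, were read from the same test. In it, 28.0% of all genes were higher and 37.7% lower. Of 22 tested genes of the periderm list, 18 rose, 0 fell and 4 did not pass, with a median log2 change of 0.65. The counts were the same under median ratio scaling and quantile normalization. Of all 16172 genes tested, 5450 were higher and 5173 lower under the first, and 4823 and 5693 under the second. anxa1 (ENSDARG00000026726), an annexin gene, stood at 1138 and 1092 TPM in the mutants and at 161 and 178 TPM in the controls (2.71, SE 0.064). tgm1 (ENSDARG00000101407), a transglutaminase gene of the cornified envelope in mammals, stood at 119 and 113 TPM against 58.8 and 61.5 TPM (0.93, SE 0.061). anxa1c rose by 0.83 and agr1 by 0.79. The values of those that did not pass were -0.01 for icn, -0.12 for icn2, -0.08 for st14a and -0.04 for s100w.

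Of 16 tested genes of the basal layer, hemidesmosomes and basement membrane, 6 rose, 7 fell and 3 did not pass, with a median of -0.14. With 28.0% of all genes tested higher and 37.7% lower, these counts alone are no result about the list. The beta 4 integrin gene itgb4, whose protein binds plectin in hemidesmosomes, stood at 0.39 and 0.33 TPM in the mutants and at 2.81 and 2.92 TPM in the controls (log2 change -1.51, SE 0.125). Being under 1 TPM in both mutants, itgb4 passed the filter only through the controls and could enter only by being lower. dst, the hemidesmosomal plakin gene, chosen after its values were seen, fell from 2.42 and 2.24 TPM to 1.27 and 1.16 TPM (-0.59). The tetraspanin gene cd151 (ENSDARG00000068629) rose by 2.55, the alpha 3 integrin gene itga3 by 1.55 and the laminin gene lama5 by 1.46. The less abundant cd151 copy (ENSDARG00000038288) moved in the opposite direction and fell (-0.86, SE 0.130). Among the other genes called in this list, fermt1 rose by 0.87, a frem2 copy (ENSDARG00000102626) by 0.66 and itga6b by 0.60. Lower were itga6 (-0.56), the other frem2 copy, ENSDARG00000076856 (-0.52), and fras1 (-0.38). Of 15 tested epidermal transcription factor genes, 7 rose, 3 fell and 5 did not pass, with a median of 0.18. gata2 (1.43), klf6 (0.94) and tfap2c (0.90) rose, and tfap2a (-0.58) fell. tp63, the factor that maintains basal epidermal cells, chosen after its values were seen, stood at 43.5 and 45.6 TPM against 59.9 and 53.8 TPM and fell (-0.34, SE 0.077).

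Among 11 other plakins and junction partners, 4 rose, 4 fell and 3 did not pass. Of all genes tested, 28.0% were higher and 37.7% lower, so these counts alone are no result about the list. The epithelial cadherin gene cdh1, which is also in the periderm list, rose by 0.70 and the p120 catenin gene ctnnd1 by 0.51. ctnnb1 (-0.55) and the neural cadherin gene cdh2 (-0.49) fell, while ctnnb2, the other copy of ctnnb1, rose (0.27). perp, a desmosomal gene and p53 target, chosen after its values were seen, did not pass at 55.9 and 65.2 TPM against 56.6 and 57.9 TPM (0.08). Intermediate filament genes other than keratins were lower, with 0 of 9 higher, 7 lower and 2 not past the test, and a median of -1.26. Of these 7, prph, could enter only as lower. lmnb1 (-1.28), lmnb2 (-1.29), gfap (-1.66) and vim (ENSDARG00000010008; -1.26) fell. The 2 that did not pass were the lamin gene lmna (-0.09) and an ina copy, ENSDARG00000011862 (0.01).

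**Figure D5:**
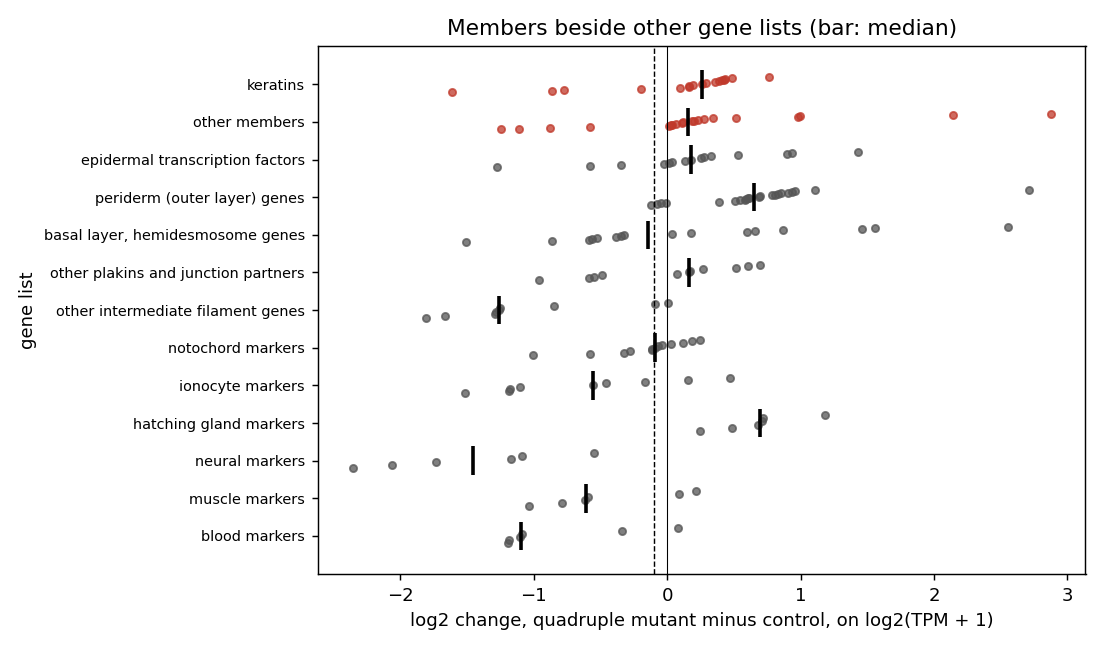
Log2 changes on the log2(TPM + 1) scale (quadruple mutant minus control) of the tested keratins and other members (red) and of 11 other gene lists (grey), with a bar at each median and a dashed line at the median of all genes tested (-0.10). The median of the keratins (0.26) lies between those of the periderm list (0.65) and the basal layer list (-0.14). The lists share some genes.

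Marker genes of other tissues changed in both directions, where 28.0% of all genes tested were higher and 37.7% lower. Some keratins are also made in the notochord and in the hatching gland. Hatching gland markers rose in 6 of 6 tested cases (median log2 change 0.70), and their summed level was 3834 and 3924 TPM in the mutants and 2403 and 2449 TPM in the controls, with hce2l1 listed at 0 in all libraries. Of 13 notochord markers, 1 rose, 2 fell and 10 did not pass, with sums of 626 and 616 TPM against 638 and 629 TPM. Under median ratio scaling 4 of them were higher and 2 lower, where 5450 of all 16172 genes tested were higher and 5173 lower. Of 9 ionocyte markers, 1 rose and 6 fell, with sums of 142 and 165 TPM against 236 and 242 TPM. The riser, trpv6, was under 1 TPM in both controls and could enter only as higher. Most of these sums came from atp1b1 and atp6v1a, matched without the copy letter, so that both copies of each counted. The lower foxi3a, foxi3b and gcm2 fell (-1.18, -1.19 and -1.10). Neural markers fell in 6 of 6 cases (sums of 192 and 239 TPM against 624 and 643 TPM), muscle markers in 4 of 6 with 1 higher (1220.3 and 1136 TPM against 1503 and 1538 TPM), and blood markers in 4 of 6 (135 and 121 TPM against 271 and 283 TPM). Of those that fell, col9a1 in the notochord list and slc4a1 (ENSDARG00000012881) in the blood list could enter only as lower. Summed periderm list TPM was 5225 and 5207 in the mutants and 3239.8 and 3219 in the controls. Of these sums, anxa1 gave 1138 and 1092 TPM against 161 and 178 TPM. icn gave 1034 and 950 TPM against 986 and 1011 TPM. The part of these tissues in the keratin and desmosome results was not tested.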

How the data were processed

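The deposited values were TPM per Ensembl gene for 4 libraries, each scaled by the authors to the same total. GRCz11 is the build in the submitters' processing notes, which list RSEM 1.3.3, STAR 2.7.3a, DESeq2 1.42.1, HTSeq 0.12.3 and R 4.3.3 with no role. Annotation and strand setting are not given in the sources used here. Since TPM keeps no depth, no count model, counting interval or detection floor was used.

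Symbols came from a gene name table (28988 of 32057 identifiers) and are printed in lower case. The 16172 genes that reached 1 TPM in 2 or more libraries entered a limma 3.58.1 fit (R 4.3.3) on log2(TPM + 1), with a variance trend and Benjamini-Hochberg adjustment over all of them (threshold 0.05). A log2 change on this scale understates that of low genes. Sums, ratios and exact permutation tests used Python 3.11.15.

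Members and the 11 lists were chosen with earlier results of these data known. The genes cdh1, eppk1, dst and tp63 are each in more than 1 list and were counted in each. List genes were matched by symbol, then without the copy letter; 1 gene of the basal layer list is not reported here and was left out of its counts. Values by library were due for members with a group mean of at least 20 TPM, or called with a log2 change of at least 1. Other members' values were added. Up to 4 genes with the lowest p were named per list. In the basal layer list the lower cd151 copy and the other called genes were added. In other lists ctnnb2, lmna and an ina copy were added. Of 43 members, 36 had one place of their own in the RefSeq order. Alternatives were other pseudocounts (0.1 and 5 TPM), filters (none and 5 TPM) and scalings, a replicate block, a fit without the variance trend, a minimum fold of 1.5 and each library left out.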

Additional observations from a re-analysis of the deposited data

How the results depend on the processing

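Of 24 members called, 20 passed in every alternative that could be fitted other than the minimum fold, and the exceptions were krt91, krt99, pkp1 and grhl3. The same count was not made for all genes called, so it is no result about the members. krt1-c5 could be fitted in 9 of these 12 alternatives, and krt1-19e and plecb in 11. Median ratio scaling gave 25 members higher and a mean difference in summed keratin TPM of 9179, against 6764 as deposited. With that scaling 5450 of all 16172 genes tested were higher and 5173 lower. A minimum fold of 1.5 left 5 higher (pkp2, pkp1a, grhl2, epcam and krt18a.1) and 3 lower (krt1-19e, plecb and pleca). It left 1721 higher and 2047 lower of all 16172 genes tested. With a filter of 5 TPM 5 were lower, since krt1-19e, plecb and krt1-c5 were no longer tested. Of the 11317 genes tested with that filter, 4609 were lower. A pseudocount of 5 TPM kept every call and shrank the log2 changes of low members, to -0.77 for krt1-19e, -0.59 for plecb, -0.65 for pleca, -0.26 for krt1-c5, -0.57 for krt1-19d, -0.52 for dsp (ENSDARG00000076673), -0.37 for pkp3 and 1.13 for pkp1a. With 1 library left out, the difference in summed keratin TPM was 5851 to 7678. Calls made with 1 library left out assume that a lone library varies as the other genotype does. Log2 changes near 0 turned sign in genes that had not passed. With 1 library left out, dsg2.1 ranged from -0.056 (without control replicate 1) to 0.28, dsp (ENSDARG00000022309) from -0.070 (without control replicate 1) to 0.096, ppl from -0.0028 (without mutant replicate 2) to 0.062 and grhl2a from -0.028 (without control replicate 2) to 0.093. dsg2.1 was also at -0.00012 without mutant replicate 1, and this dsp at -0.061 without mutant replicate 2.

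Deviations of same-numbered libraries correlated at r = 0.049 across genes, and no label says that a number marks a shared batch, so numbers were not taken as pairs. With the replicate block 16 members were higher and 7 lower, beside 4457 and 6062 of all 16172 genes tested. krt91 (-0.19) and pkp1 (0.23) then did not pass and pkp3a (0.27) did. Without counts, the precision of low members such as krt1-c5 and krt1-19e is unknown.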
